A study of Mus musculus with 3 samples.

Results

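The 9 genes described here are 5 of the STAT family of transcription factors (Stat2, Stat3, Stat5a, Stat5b and Stat6) and the 4 Janus kinase (JAK) genes (Jak1, Jak2, Jak3 and Tyk2). They were taken by symbol from the 50600 genes of the deposited count tables, and all 9 were found and passed the filter on low counts. The RNA came from cells labelled as primary Th1 (T-helper 1) cells of C57BL/6NJ mice, as 3 libraries of 1 group. Th1 cells as a type are CD4 cells that produce interferon gamma, though its gene Ifng had few counts here, as given below. The labels point to a CD4 T cell differentiation protocol and to a polyA library protocol while naming the assay total RNA-seq, and they leave age unknown and sex not collected. The count file headers carry 24 hr. The labels number the libraries as biological replicates 1, 2 and 3 with the same donor entry and leave unsaid whether animals or cultures were separate. The p-values therefore measure no more than the spread among these 3 samples, part or all of which may be technical. With 1 cell type and 1 condition, the comparisons are between genes of a library and between libraries.

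JAK kinases sit on the inner tails of cytokine receptors and phosphorylate each other, the receptor and then STAT proteins when a cytokine binds. Phosphorylated STAT proteins pair, enter the nucleus and switch on target genes. In CD4 T cells interleukin 2 and interleukin 7 act mainly through JAK1, JAK3 and the pair STAT5A and STAT5B, interleukin 4 through STAT6, interleukins 6 and 21 through STAT3, and type I interferon through JAK1, TYK2 and STAT2.

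Counts in these tables are read pairs on the annotated strand of a gene, made by the authors with strand option 1. The sources used here name neither the library kit nor whether it marks strand. If it marks the strand opposite to that setting, the counts listed for a gene are of RNA from the other strand, and every level, order and share below would then describe that RNA; this was not tested, and all values hold for the counts as deposited. Replicates 1, 2 and 3 held 3553547, 2945353 and 3369468 counts in total. A value of 3 counts, the limit that a count of 0 allows, is 0.844, 1.02 and 0.89 CPM (counts scaled to library size) in them. Genes whose exons share bases with an exon on the opposite strand were 16.2% of all genes and held 68%, 77.5% and 70.3% of the counts. With the strand of the kit unknown, read pairs of such a gene and of its partner cannot be told apart on the shared bases. Among the members with overlap these bases were from 0.055% (Jak1) to 8.07% (Tyk2) of exon length, and how many read pairs fell there was not tested. Counts on other genes may be only part of their mRNA. All 11 T cell markers were detected at 1 TPM or more (TPM is a count scaled by exon length and library size) in every library, but of 10 Th1 markers only 6 were. The highest of these were Lta, Tnf, Ccl4 and Ccl3, at 234, 108, 94.5 and 73.2 TPM on average. Tbx21, which encodes the Th1 factor T-bet, was among the 6 but had only 15, 11 and 8 counts. Ifng was not among them and had 2, 2 and 1, under the limit of 3 counts. Of 26 markers in 6 lists for other cell types 6 were detected and 13 had no count in any library. Outside the macrophage list these were Cd8b1 (30, 20 and 36 counts), Cd79a (19, 18 and 22), Pecam1 (38, 31 and 32) and Xcr1 (9, 8 and 12). Their exons share no base with the opposite strand. The macrophage list summed to 163 to 169 TPM, nearly all of it from Csf1r, which shares 871 exon bases with the opposite strand. Of the macrophage list Cd68, which shares none, was also detected, with 22, 6 and 7 counts. Adgre1 had 0, 1 and 1 counts, and Lyz2, Cd14 and Itgam were at 0. The part of RNA from macrophages or other cell types in the results was not tested.

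Sequence bears on these genes in 3 places, shown first. STAT5A and STAT5B come from neighbouring genes on chromosome 11 and are near copies. The coding sequences were 90.8% identical over 2290 aligned bases, and no other pair within the STAT or within the JAK genes was above 69.9%. They share an identical run of 324 coding bases across 3 exons (coding positions 571 to 894 in both, mm10 chr11:100874023-100874983 for Stat5a and chr11:100797741-100798701 for Stat5b). A read pair that falls wholly inside that run matches both genes equally, and the file headers carry no option to count pairs that align in several places. The start of the run is shown with 60 bases before it, from the GENCODE release M21 transcripts, with the base that differs in capitals (coding positions 511 to 660; chr11:100865466-100874112, plus strand, for Stat5a and chr11:100798612-100801446, minus strand, for Stat5b, both across 2 exons).
Stat5a: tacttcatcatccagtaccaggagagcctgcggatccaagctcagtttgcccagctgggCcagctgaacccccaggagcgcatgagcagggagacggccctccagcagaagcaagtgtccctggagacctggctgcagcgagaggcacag
Stat5b: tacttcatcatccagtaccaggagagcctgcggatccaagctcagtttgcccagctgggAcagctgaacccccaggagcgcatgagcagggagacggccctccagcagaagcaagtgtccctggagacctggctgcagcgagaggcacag
Of all 50-base words in Stat5a transcripts 8.21% also occur in Stat5b, and 11% of those of Stat5b occur in Stat5a. The counts of both genes are therefore uncertain where the copies are identical. No 50-base word of Stat6, Jak1 or Jak2 occurs in a transcript of another gene.

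The second is the upstream window of Stat2, which encodes the STAT that works with IRF9 in the complex induced by type I interferon. That complex binds the interferon-stimulated response element, searched here on both strands as TTTC, any 2 bases and TTTC. Among the 11 RefSeq windows of the 9 genes (300 bases around a start, GRCm38.p6, the assembly named mm10), only that of Stat2 held a match, which starts 222 bases before the start. Such a match occurs in 3.44% of all 32851 windows. The STAT dimer motif TTCNNNGAA, which occurs in 8.3% of them, was in none of the 11. The match is in capitals (chr10:128270248-128270547, plus strand).
Stat2: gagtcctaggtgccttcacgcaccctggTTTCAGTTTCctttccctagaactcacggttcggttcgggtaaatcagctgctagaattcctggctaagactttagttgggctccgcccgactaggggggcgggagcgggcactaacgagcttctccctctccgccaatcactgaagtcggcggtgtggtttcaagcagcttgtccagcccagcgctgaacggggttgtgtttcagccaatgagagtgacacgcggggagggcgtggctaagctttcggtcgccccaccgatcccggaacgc

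The third is the exon that puts a gene on the opposite strand inside Tyk2. The antisense gene 1700084C06Rik has its second exon (chr9:21127840-21128393, 554 bases) within Tyk2, opposite a Tyk2 transcript with a retained intron and outside the exons of its coding transcripts. The first 120 bases of that exon (chr9:21127840-21127959, plus strand) are shown because this gene held far more counts than Tyk2.
1700084C06Rik: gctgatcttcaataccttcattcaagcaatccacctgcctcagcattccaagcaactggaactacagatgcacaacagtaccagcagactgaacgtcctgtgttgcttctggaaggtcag

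The 9 genes spanned a 28.1-fold range of level (SD 4.66, n = 3), from Stat6, the interleukin 4 factor, to Stat2. Levels in TPM were computed from the deposited counts and exon lengths and are given as mean ± SD over the 3 libraries (n = 3), with values listed for replicates 1, 2 and 3. All 9 were at 1 TPM or more in every library, against 41.2% of protein-coding genes, and 7 of 9 were at 5 TPM or more, against 24.7%. Their median was 15.9 ± 3.31 TPM, and that of all 21764 protein-coding genes was 0.386 ± 0.0703 TPM. The order from high to low was Stat6, Jak1, Jak2, Stat5b, Stat3, Stat5a, Jak3, Tyk2 and Stat2. Of the 8 steps between neighbours, 3 were not beyond their spread, namely Jak1 over Jak2, Stat5b over Stat3 and Stat3 over Stat5a, each of which held in 2 of 3 libraries. The step from Stat5a to Jak3 held in 3 of 3 but was barely larger than its SD (0.15 ± 0.14 on the log2(TPM + 1) scale). With 3 libraries an exact sign-flip test cannot go below p = 0.25, so the steps carry no p.

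**Figure D1:**
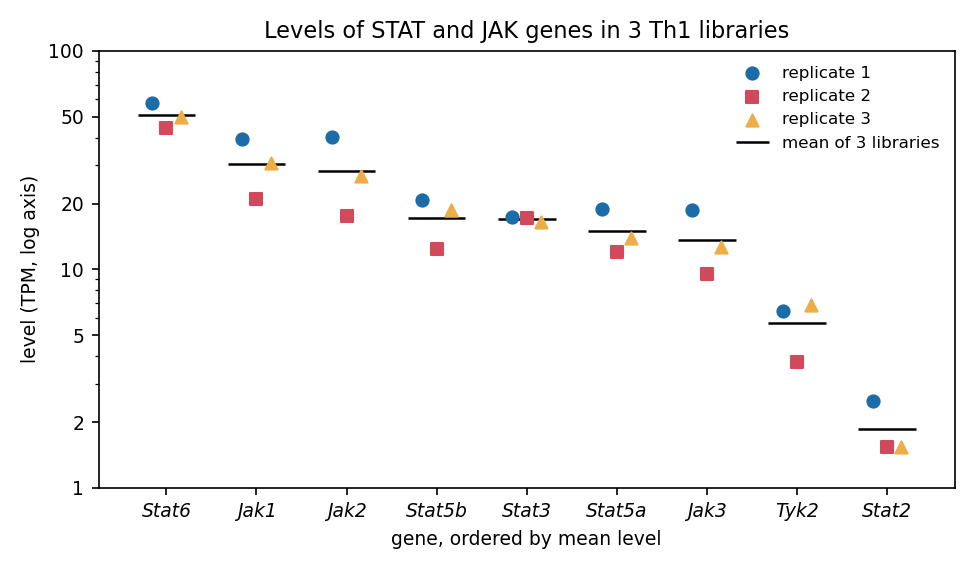
Level of each gene in TPM on a log axis, with 1 point per library and a line at the mean of the 3 libraries. Stat6 stands highest at 44.2 to 57.8 TPM and Stat2 lowest at 1.54 to 2.49 TPM, and the points of Stat3 nearly coincide.

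Stat6 (ENSMUSG00000002147.18, mm10 chromosome 10, 127642986 to 127660957, plus strand) had 484, 340 and 411 counts. Its level was 57.8, 44.2 and 50 TPM, higher in each library than that of any other of the 9 genes. On average 94.3% of protein-coding genes were lower. Its 3′ end shares 40 exon bases with Nab2, which encodes a corepressor of EGR factors and lies tail to tail with Stat6 on the minus strand. Nab2 had 585, 449 and 575 counts, so that Stat6 held 45.3% (exact binomial 95% interval 42.3 to 48.3), 43.1% (39.6 to 46.6) and 41.7% (38.6 to 44.8) of the counts of the pair. Per kb of exon Nab2 was 1.81, 1.98 and 2.09 times as high as Stat6. Nab2 itself lies opposite 2 more genes, sharing 1050 bases with the antisense gene Gm16229 and 151 with Nemp1. Gm16229 had 6131, 6134 and 5992 counts and Nemp1 had 234, 165 and 202. The counts of Nab2 therefore cannot be placed opposite Stat6 alone. The intervals and the limit for a count of 0 cover counting error only, because reads without molecular identifiers may be copies of 1 molecule.

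Stat5b and Stat5a, the interleukin 2 factors, stood close together. Stat5b (ENSMUSG00000020919.11, chromosome 11, 100780731 to 100850724, minus strand) had 218, 120 and 193 counts, or 20.7, 12.4 and 18.6 TPM. Stat5a (ENSMUSG00000004043.14, chromosome 11, 100859351 to 100885169, plus strand) had 257, 149 and 186 counts, or 19, 11.9 and 14 TPM. Stat5a had more counts in replicates 1 and 2, and without length the mean log2 ratio of Stat5a to Stat5b was 0.17. The exon length of Stat5a is greater, at 7133 against 5539 bases. This length takes in the exons of all annotated transcripts of a gene, and whether the transcripts in these cells have it was not tested. Per kb Stat5a was lower in each library, with a log2 ratio of Stat5a to Stat5b of -0.13, -0.05 and -0.42 (mean -0.20 ± 0.19). The mean ratio was about as large as its SD, and the identical run shown above leaves both values uncertain. Stat5b shares no exon base with another gene.

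Stat3, the factor of interleukins 6 and 21, had nearly the same TPM in the 3 libraries, but not the same TMM-scaled level. Stat3 (ENSMUSG00000004040.16, chromosome 11, 100885098 to 100939540, minus strand) had 314, 286 and 293 counts, or 17.3, 17.2 and 16.5 TPM. Its coefficient of variation was 2.76%, while those of the other 8 genes ran from 13.5% for Stat6 to 40.4% for Jak2. After the TMM scaling used in the library test below, the coefficient of Stat3 was 20.4%, the second after Jak2 at 24.1%, and those of Stat6 and Stat5b were lowest at 7.59% and 7.96%. Stat3 and Stat5a lie tail to tail and share 72 exon bases at their 3′ ends, so each is the opposite-strand partner of the other. Stat3 held 55% (exact binomial 95% interval 50.8 to 59.1), 65.7% (61.1 to 70.2) and 61.2% (56.6 to 65.6) of the counts of the pair. The interval of replicate 1 does not reach the share of replicate 2. Relative to Stat5b the log2 ratio per kb was -0.26, 0.47 and -0.18, so replicate 2 alone had more Stat3, and without replicate 2 the mean turned from 0.01 to -0.22.

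Stat2 (ENSMUSG00000040033.16, chromosome 10, 128270559 to 128292849, plus strand) had only 28, 16 and 17 counts, or 2.49, 1.54 and 1.54 TPM. The exact Poisson 95% intervals were 18.6 to 40.5, 9.15 to 26 and 9.9 to 27.2 counts, and they overlap. Its exons touch those of no other gene. Of protein-coding genes 59.8% were lower on average, the smallest share among the 9. Stat2, whose upstream window holds the motif match shown above, had the fewest counts of the 9 genes. Whether the match bears on that level was not tested. Irf9, which encodes the DNA-binding partner of STAT2, had 38, 20 and 25 counts.

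Among the kinases Jak1 and Jak2 stood highest. Jak1 serves most cytokine receptors of T cells, and Jak2 serves the receptors of interleukin 12 and interferon gamma. Jak1 (ENSMUSG00000028530.14, chromosome 4, 101152367 to 101265282, minus strand) had 542, 264 and 415 counts, or 39.5, 20.9 and 30.7 TPM. Jak2 (ENSMUSG00000024789.12, chromosome 19, 29251828 to 29313080, plus strand) had 384, 154 and 252 counts, or 40.2, 17.5 and 26.8 TPM. The log2 ratio of Jak1 to Jak2 per kb was -0.03, 0.25 and 0.20 (0.14 ± 0.15), within its spread. Jak1 shares 4 exon bases with Raver2, an RNA-binding protein gene with 14, 17 and 17 counts, and held 97.5%, 94% and 96.1% of the counts of that pair. Jak2 shares no exon base with another gene.

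Jak3, whose kinase binds the common gamma chain of the interleukin 2 receptor family and pairs with JAK1 there, stood below Jak1 in every library. Jak3 (ENSMUSG00000031805.17, chromosome 8, 71676296 to 71690575, plus strand) had 190, 89 and 127 counts, or 18.7, 9.51 and 12.7 TPM. The log2 ratio of Jak3 to Jak1 per kb was -1.08, -1.14 and -1.27 (-1.16 ± 0.10), which is 2.24-fold lower on average and the ratio with the smallest SD of the 6 computed. At its 3′ end Jak3 shares 404 exon bases with Insl3, a hormone gene on the same strand that had 4, 3 and 3 counts. The file headers carry no option to count pairs that fall on several genes, so the level of Jak3 may be understated there.

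Tyk2, the kinase of the type I interferon and interleukin 12 receptors, was the lowest kinase and lay opposite the most counted partner. Tyk2 (ENSMUSG00000032175.11, chromosome 9, 21104068 to 21131243, minus strand) had 84, 45 and 88 counts, or 6.44, 3.75 and 6.86 TPM. Its log2 ratio to Jak2 per kb was -2.64, -2.22 and -1.97 (-2.28 ± 0.34), or 4.85-fold lower. On the plus strand 1700084C06Rik, with the exon shown above, had 2305, 2329 and 2238 counts. Tyk2 held 3.52% (exact binomial 95% interval 2.81 to 4.33), 1.9% (1.39 to 2.53) and 3.78% (3.05 to 4.64) of the counts of the pair. Per kb of exon 1700084C06Rik was 251, 474 and 233 times as high as Tyk2 in the counts as deposited. If the kit marks the other strand, the counts listed for 1700084C06Rik are of RNA from the Tyk2 strand, and shares and ratio do not apply. Of its 750 exon bases 554 lie opposite Tyk2 and 192 opposite Raver1 and Gm38431, which had at most 3 counts in any library, so its counts cannot be placed opposite Tyk2 alone.

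**Figure D2:**
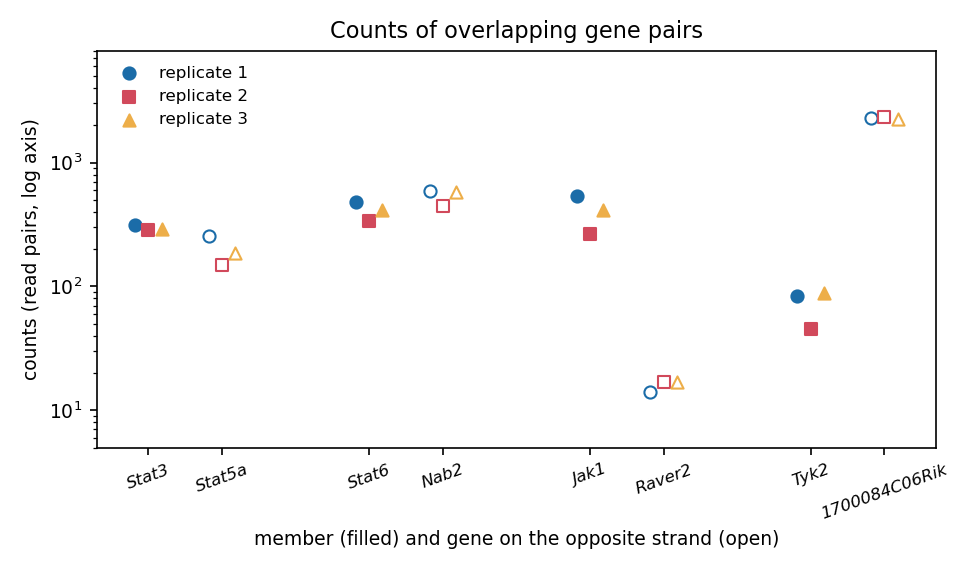
Counts of each overlapping pair on a log axis, with filled points for the STAT or JAK gene, open points for the gene on the opposite strand, and 1 point per library. In each library Stat3 stands above Stat5a, Nab2 above Stat6 and Jak1 above Raver2. The points of 1700084C06Rik stand at 2238 to 2329 counts, above Tyk2 at 45 to 88.

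Summed per kb, the 5 STAT genes stood above the 4 kinase genes in each library. The sums were 223, 153 and 188 counts per kb for the STAT genes and 199, 90.3 and 144 for the kinases, and the log2 ratio was 0.16, 0.76 and 0.38 (0.43 ± 0.30). The ratio was highest in replicate 2, where the kinases were lowest. In TPM replicate 1 was the highest library for 8 of 9 genes, against 62.4% of the 10216 genes that passed the filter on low counts, and replicate 2 the lowest for 7 of 9, against 70%. The order of replicates 1, 3 and 2 from high to low held for 6 of the 9 genes in TPM, against 54.8% of those genes. In TMM-scaled counts replicate 1 was highest for 6 of 9 (38.9% of all), replicate 2 lowest for 5 of 9 (42.6%), and that order held for 4 of 9 (28.6%).

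A chi-square test of each gene against counting error compared the libraries, at library sizes scaled by the trimmed mean of M-values (TMM). Of the 9 genes 4 passed at an adjusted p under 0.05, against 35.6% of all tested genes, so the share among these genes was near the background. Higher in replicate 1 than in replicate 2 were Jak1, Jak2 and Jak3, against a background of 12.2%, and higher in replicate 2 was Stat3, against 23.5%. Jak2 had the largest difference, with 97.8, 61.7 and 72.1 CPM after scaling and a log2 ratio of replicate 1 to replicate 2 of 0.66 (chi-square test, adjusted p = 3.9e-06). Stat3 had 80, 115 and 83.9 CPM and a log2 ratio of -0.52 (chi-square test, adjusted p = 7.33e-05). Jak1 had 138, 106 and 119 CPM (log2 0.38, chi-square test, adjusted p = 0.00442) and Jak3 had 48.4, 35.7 and 36.3 CPM (log2 0.44, chi-square test, adjusted p = 0.0363). The other 5 genes, Stat2, Stat5a, Stat5b, Stat6 and Tyk2, did not pass (chi-square test, adjusted p from 0.194 to 0.586). In bulk RNA a smaller number of cells and less RNA per cell cannot be told apart.

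The libraries also differed by gene position. Among tested genes without an opposite-strand exon overlap the median log2 ratio of replicate 1 to replicate 2 was 0.23 (5854 genes), and among those with one it was -0.42 (4362 genes). Jak2, Jak3, Stat5b and Stat2, which have no overlap, were at 0.66, 0.44, 0.21 and 0.15, and 86.7%, 71%, 47.7% and 42.2% of the genes without overlap were lower. Of the genes with overlap, Stat3 was at -0.52 and Stat6 at -0.14, while Stat5a, Tyk2 and Jak1 were on the other side of 0 from the median of their class, at 0.13, 0.25 and 0.38. Of the genes with overlap 42.9% were lower than Stat3, 63.8% lower than Stat6, and 76.3%, 82.1% and 87.7% lower than Stat5a, Tyk2 and Jak1. The part of this position difference in the results was not tested. With TMM computed on genes without overlap, which moves the median of all tested genes from 0.04 to -0.17, Jak2 (adjusted p = 0.00176) and Stat3 (adjusted p = 2.32e-09) still passed the chi-square test, Jak1 and Jak3 did not (adjusted p = 0.312 and 0.215), and Stat6 passed (log2 -0.36, adjusted p = 0.00211). Scaled by total counts, Stat3 did not pass (log2 -0.14, chi-square test, adjusted p = 0.437).

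**Figure D3:**
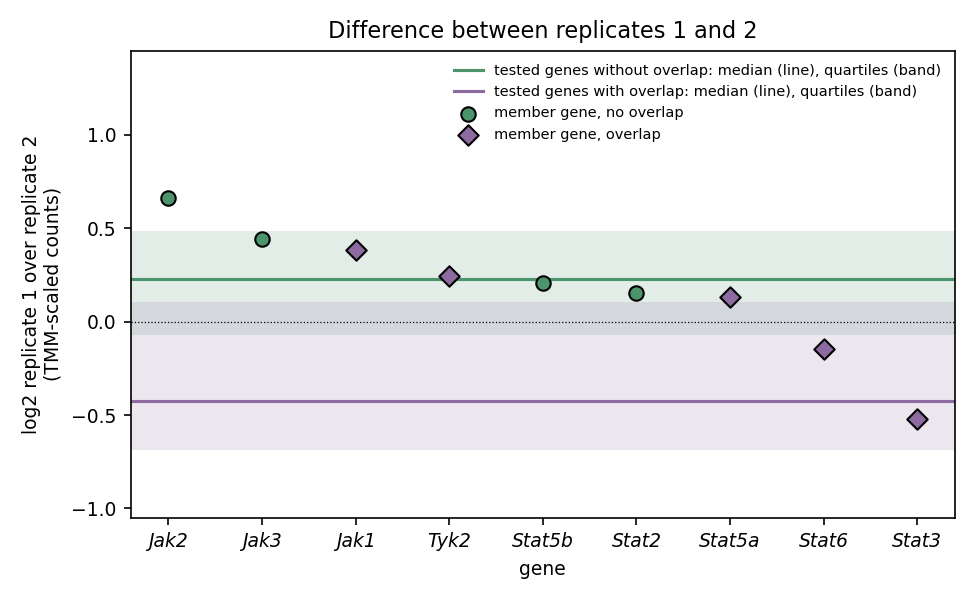
Log2 ratio of replicate 1 to replicate 2 in TMM-scaled counts for each gene (points, colored by opposite-strand exon overlap), with the median and quartiles of all tested genes of both kinds. All 4 kinase genes lie above 0, and Stat3 and Stat6 lie below 0; scaled by total counts Stat6 lies above 0 (0.24).

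All 4 calls depended on which libraries were compared. Without replicate 1 only Stat3 passed, without replicate 2 only Jak2 passed, and without replicate 3 Jak1, Jak2 and Stat3 passed (chi-square test, adjusted p for Jak3 = 0.0536). Of all tested genes 24.4% passed without replicate 1, 9.04% without replicate 2 and 37% without replicate 3. Leaving out replicate 2 ended the calls on Jak1, Jak3 and Stat3 (chi-square test, adjusted p = 0.155, 0.105 and 0.793), and leaving out replicate 1 ended those on Jak1, Jak2 and Jak3 (adjusted p = 0.275, 0.262 and 0.924).

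Receptors that feed the JAK kinases were mostly counted. The 24 cytokine receptor genes listed had 18 members at 1 TPM or more in every library, against 41.2% of protein-coding genes. The list median was 4.72 ± 1.66 TPM, against 0.386 TPM for protein-coding genes. The highest were the chains of the interleukin 2 receptor Il2ra, with 788, 462 and 711 counts, and Il2rb, with 265, 140 and 164, and then Il21r, with 200, 125 and 211. Csf2rb, Lifr and Osmr, receptor chains of myeloid and interleukin 6 family cytokines, had no counts. Of the 17 receptors tested for library differences 4 passed, against 35.6% of all tested genes. Replicate 1 was above replicate 2 for 2 of them (12.2% of all) and below it for 2 (23.5%). The largest fold between libraries among them was 1.84 for Il12rb2, an interleukin 12 receptor chain that shares 1519 exon bases with the opposite strand (90, 105 and 114 counts), and the smallest was 1.37 for Il6ra (191, 153 and 232 counts, 242 shared bases).

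Inhibitors of the pathway were led by phosphatases rather than by the SOCS genes. Of 19 listed, 17 were at 1 TPM or more in every library, against 41.2% of protein-coding genes (list median 6.48 ± 1.89 TPM). The phosphatase gene Ptpn6 stood at 152 ± 37.8 TPM (195 bases shared with the opposite strand), Ptprc, which encodes CD45, at 55.5 ± 17.4, and Ptpn2, whose enzyme acts on JAK1, JAK3 and STAT proteins, at 26.4 ± 7.5. The SOCS family genes and Cish are feedback inhibitors induced by STAT proteins. Cish had 212, 121 and 172 counts and Socs1 25, 19 and 18, while Socs3, the inhibitor that acts on the STAT3 route, had 5, 6 and 2. Cish, Socs1 and Socs3 are given outside the rule for naming genes, after their values were seen. Of 17 tested, 4 passed (35.6% of all genes), all higher in replicate 1 than in replicate 2 (12.2% of all genes). The fold between libraries ran from 1.15 for Ptpn6 to 2.46 for Pias1 (58, 15 and 48 counts).

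Partners and STAT target genes were counted in most cases as well. Of 12 partners and adaptors 11 were at 1 TPM or more in every library, against 41.2% of protein-coding genes (list median 5.69 ± 1.81 TPM). This list was led by the deacetylase gene Hdac1 at 51.4 ± 10.4 TPM, Ndufa13 at 51.4 ± 12.5 (375 shared bases) and the JAK2 adaptor gene Sh2b1 at 11.1 ± 2.75. Of the 12 tested, 1 passed (35.6% of all genes). It was Kpna1, an importin that carries STAT proteins into the nucleus, higher in replicate 1 than in replicate 2 (126, 49 and 98 counts). Of 15 textbook STAT targets in T cells 13 were at 1 TPM or more in every library, against 41.2% of protein-coding genes (list median 32 ± 11.5 TPM). Myc had 637, 344 and 567 counts, Il2ra is given above, and Batf, an AP-1 factor gene, had 98, 71 and 138. Of 13 targets tested 7 passed (35.6% of all genes). Replicate 1 was above replicate 2 for 4 of them (12.2% of all) and below it for 3 (23.5%), and Batf was highest in replicate 3. The fold between libraries ran from 1.24 for Ccnd3 (361 shared bases) to 2.12 for Gata3 (29, 39 and 30 counts, 155 shared bases). Il2ra, Cish and Socs3 are in more than 1 list.

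**Figure D4:**
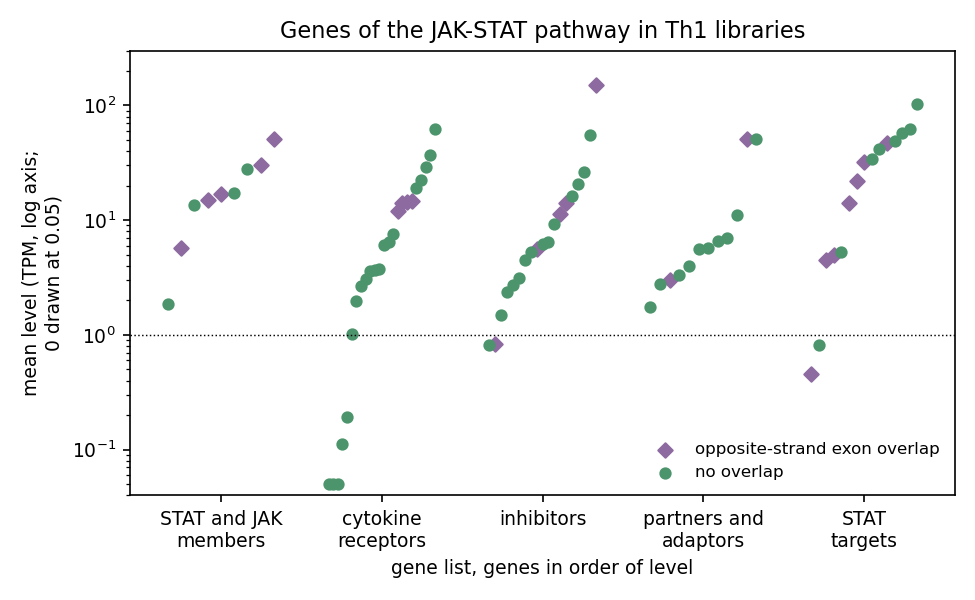
Mean TPM of the 9 STAT and JAK genes and of the 4 pathway lists on a log axis, with genes in order of level, colored by opposite-strand exon overlap, and a dotted line at 1 TPM. All 9 STAT and JAK genes lie above the line, and genes without any count (Csf2rb, Lifr and Osmr) are drawn at 0.05.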

How the data were processed

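Per the file headers, the authors made the deposited counts of read pairs per gene on GENCODE M13 exons, with featureCounts 1.4.6-p4, both ends aligned and strand option 1, and the labels give mm10. Symbols came from GENCODE M21 by gene identifier (50376 matched, 224 did not). TPM, counts per kb and CPM were computed here from counts and the exon length in the same files, and opposite-strand overlap from the exon coordinates. The exon length covers all annotated transcripts of a gene, so TPM, counts per kb and the order of levels depend on the annotation. The chi-square test (2 degrees of freedom) covered 10216 genes passing edgeR's filterByExpr, at TMM library sizes, with Benjamini-Hochberg adjustment over all of them. It was run on simulated data with counting error and planted changes only. That simulation cannot show how the test behaves under the wider differences among the real libraries. Named are the 9 genes, their opposite-strand partners, the 3 highest genes of each pathway list, and its called genes with the largest and smallest fold. The genes and lists were chosen with earlier results of these data known. Sequences came from RefSeq promoter windows and GENCODE M21 transcripts. Protein sequences were not used here. Alternatives were other scalings, filters, tests, length treatment and leaving out each replicate. Software was R 4.3.3, edgeR 4.0.16, DESeq2 1.42.0 (size factors only), Python 3.11.15 and scipy 1.17.1.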

Additional observations from a re-analysis of the deposited data

How the results depend on the processing

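The order of the 9 levels kept Stat6, Jak1 and Jak2 at the top and Jak3, Tyk2 and Stat2 at the bottom under all 6 alternatives run on levels, while Stat3 and Stat5b changed places in 4 of them. The levels themselves moved, for Stat2 from 1.86 to 4.58 TPM over protein-coding genes alone and 9.39 TPM over genes without overlap, and for Stat6 from 50.7 to 125 and 259 TPM. The fold of Stat6 over Stat2 ran from 25.9 to 30.6 with 1 replicate left out. The number of the 9 genes that passed the chi-square test was 3 with DESeq2 size factors and 6 with total counts. It was 3 with TMM over genes without overlap, and 1 to 3 with 1 replicate left out. With total counts Stat5a, Stat5b and Tyk2 passed (chi-square test, adjusted p = 0.00222, 0.00312 and 0.0235) and Stat3 did not. Of all tested genes 34.7% passed with DESeq2 size factors and 33.3% with TMM over genes without overlap. Without replicates 1, 2 and 3 in turn the shares were 24.4%, 9.04% and 37%. Over all genes the number that passed was 3642, and it ran from 971 without replicate 2 to 5278 (51.7% of tested genes) with total counts. Without replicate 3 it was 3795. With total counts the log2 ratio of replicate 1 to replicate 2 turned to 0.24 for Stat6. With TMM over genes without overlap it turned to -0.061 for Stat2, -0.081 for Stat5a and -0.0066 for Stat5b. None of these 4 reversed values passed the test in its setting. Without length the ratio of Stat5a to Stat5b reversed to 0.17, and the other log2 ratios were 0.79 for Stat3 to Stat5b, 0.66 for Jak1 to Jak2, -1.60 for Jak3 to Jak1 and -1.83 for Tyk2 to Jak2; longer exons draw more counts. With 1 replicate left out the ratio of Stat3 to Stat5b ran from -0.22 to 0.15. With at least 100 shared bases 1 gene, Tyk2, still had a partner, in place of 5. At 5 TPM or more in every library were 10 of 24 cytokine receptors, 8 of 19 inhibitors and 4 of 12 partners, against 24.7% of protein-coding genes. Among targets without overlap 7 of 8 were at 1 TPM or more. No paired analysis was possible because there is 1 group. Depth limits Stat2 and Tyk2 most, with 16 to 28 and 45 to 88 counts.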
